A study of Mus musculus with 14 samples.

Results

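The genes described here are the C/EBP transcription factors Cebpa, Cebpb, Cebpd and Cebpg, the Tribbles pseudokinases Trib1, Trib2 and Trib3, and the polo-like kinases Plk2 and Plk3. They are 9 of the 24394 named genes in the table, matched by symbol. The set was chosen by measured values of these data, namely the lower levels of Trib1 and Plk3 after CD22 blockade. The differences of these 2 genes between the groups are therefore a description, with no test. The levels came from RNA sequencing of microglia, macrophages that live in the brain, from C57BL/6 mice aged 18 months. One group of mice received anti-CD22, a blocking antibody to a receptor that recognizes sialic acid and inhibits signals, and the other a control IgG. Both were infused by osmotic pump into the cerebrospinal fluid for 1 month, so all animals carried a cannula. Each group has 7 libraries, each from about 20000 live cells with CD11b and low CD45 that were sorted from the hemi-brain opposite the cannula. The labels give no sex and do not say whether a library is 1 animal, so each p-value reflects only how far these samples spread, which may be technical.

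C/EBP proteins are leucine zipper factors that bind DNA as pairs. C/EBP alpha directs the formation of myeloid cells, and C/EBP beta and C/EBP delta are raised in macrophages by inflammatory signals. C/EBP gamma lacks the activation domain of its relatives and can hold them in less active pairs. Tribbles proteins have a kinase fold with little or no catalytic activity. Trib1 and Trib2 bring the ubiquitin ligase COP1 to C/EBP alpha, which is then degraded, while Trib3 is a target of ATF4 and CHOP in the stress response to unfolded proteins or lack of amino acids. Plk2 and Plk3 were first described as genes that growth factors switch on rapidly, and both respond to DNA damage and other stress.

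Promoters of 7 of the 9 genes were found in RefSeq (GRCm38.p6), each as 250 bases before and 50 bases after the start. Those of Cebpb and of the paralogues Plk3 and Plk2 are shown because these genes are known for fast induction, which in many genes runs through cyclic AMP response elements. The capitals mark the element TGACGTCA, its core TGACG and the TATA box TATAAA, searched on both strands. A core on the other strand reads CGTCA, and every full element also holds 2 cores. The core was added to the search after the promoters had been seen.
Cebpb, chr2:167688665-167688964, plus strand: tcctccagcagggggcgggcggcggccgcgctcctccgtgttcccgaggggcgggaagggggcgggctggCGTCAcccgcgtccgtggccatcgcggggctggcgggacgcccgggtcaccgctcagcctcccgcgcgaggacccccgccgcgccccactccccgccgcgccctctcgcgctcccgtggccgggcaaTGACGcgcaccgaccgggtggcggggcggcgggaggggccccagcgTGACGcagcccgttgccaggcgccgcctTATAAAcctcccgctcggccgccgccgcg
Plk3, chr4:117133914-117134213, minus strand: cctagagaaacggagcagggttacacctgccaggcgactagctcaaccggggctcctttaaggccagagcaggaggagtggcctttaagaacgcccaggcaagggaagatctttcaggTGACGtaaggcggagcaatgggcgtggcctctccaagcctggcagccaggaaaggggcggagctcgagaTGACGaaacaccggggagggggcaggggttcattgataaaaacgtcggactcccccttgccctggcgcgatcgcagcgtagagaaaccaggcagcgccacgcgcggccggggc
Plk2, chr13:110394794-110395093, plus strand: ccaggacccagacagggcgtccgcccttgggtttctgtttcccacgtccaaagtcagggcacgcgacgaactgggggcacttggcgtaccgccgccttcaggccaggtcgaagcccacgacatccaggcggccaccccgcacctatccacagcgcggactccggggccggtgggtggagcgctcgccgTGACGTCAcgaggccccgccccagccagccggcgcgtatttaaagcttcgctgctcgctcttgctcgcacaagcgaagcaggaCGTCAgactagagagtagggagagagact

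The core TGACG was found in 4 of the 7 promoters (Trib3, Cebpb, Plk2 and Plk3), beside 20.8% of all 32851 promoters of this length. That share was not matched for GC content, which was 58.3% to 80.7% in the 7 promoters. The C/EBP site, AP-1 site, C/EBP-ATF element, CArG box and CCAAT box were searched too. Of these only the CCAAT box matched, in Cebpg. Plk2 held the full element, which 1.79% of all promoters hold, at 62 bases before the start. Cebpb had 3 cores, at 180, 53 and 7 bases before the start, and Plk3 had 2, at 132 and 63 bases. The TATA box of Cebpb lay 22 bases after the annotated start. These matches describe letters in the window and say nothing of a bound factor.

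Libraries held between 27357939 and 29197481 normalized counts, that is reads per gene divided by 1 size factor per library. Whole reads, recovered for 13 libraries, ranged from 20221836 to 38101421. The 7 microglia markers summed to between 1624073 and 1739597 normalized counts in anti-CD22 libraries and between 1547998 and 1813195 in IgG libraries. The 5 neutrophil markers found in the table reached at most 3486 with anti-CD22 and 17129 with IgG, and the 4 monocyte markers 379 with anti-CD22 and 624 with IgG. Both IgG maxima were in IgG replicate 1. The medians went the other way, with 1110 for neutrophil markers with anti-CD22 and 535 with IgG. For monocyte markers they were 290 with anti-CD22 and 177 with IgG. Markers of astrocytes, oligodendrocytes and endothelial cells were present in every library in like ranges. The 5 astrocyte markers summed to between 6595 and 8426 with anti-CD22 and between 5920 and 8566 with IgG. The 5 oligodendrocyte markers summed to 1420 to 2066 with anti-CD22 and 1631 to 2185 with IgG, and the 5 endothelial markers to 885 to 1235 with anti-CD22 and 635 to 1216 with IgG, although the endothelial marker Cldn5 was at 0 throughout. The 5 markers of border macrophages summed to 218 to 1219 with anti-CD22 and 67.2 to 919 with IgG. Neuron markers reached at most 92.9 with anti-CD22 and 67.1 with IgG, and were at 0 in IgG replicate 4. T or B cell markers reached at most 30.8 with anti-CD22 and 16.3 with IgG. The part of these cells in the results was not tested. Long or GC-poor transcripts were relatively more abundant in anti-CD22 replicates 1, 2 and 3: across genes, the Spearman rho of GC content with a gene's level, set relative to its average over the 14 libraries, was -0.31, -0.40 and -0.36 there, and from -0.022 to 0.28 in the other 11 libraries. In bulk libraries, fewer cells of a type and less RNA per cell cannot be told apart.

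Set per kilobase of the longest annotated transcript, Cebpb was the most abundant of the 9 genes, with 1612 ± 636 normalized counts per kilobase with anti-CD22 and 1970 ± 647 with IgG (SD, n = 7 each). That level is above 92.1% of 11224 genes with a known length. Next with anti-CD22 came Cebpa at 922 ± 172, Cebpd at 755 ± 225, Cebpg at 659 ± 55.8, Plk3 at 569 ± 73.1 and Trib1 at 498 ± 65.9 per kilobase. With IgG the order was Cebpa at 931 ± 101, Cebpd at 903 ± 161, Plk3 at 830 ± 136, Trib1 at 682 ± 82.6 and Cebpg at 524 ± 60.8 per kilobase (SD, n = 7). Cebpb lay above Cebpa in every library of both groups, while the ranges of Cebpa and Cebpd, of Cebpd and Plk3, and of Plk3 and Trib1 overlapped in both groups. Trib1 lay above Cebpg in 0 of 7 anti-CD22 libraries and in 6 of 7 IgG libraries. Because Trib1 was picked for its fall, this change of order is a description only. Plk2 and Trib3 were scarce, at 17.0 ± 7.84 and 29.1 ± 23.4 per kilobase with anti-CD22 and 34.6 ± 20.0 and 26.1 ± 10.4 with IgG, and their order differed between libraries. Of the 9 genes, 8 had a mean of at least 10 normalized counts over all libraries and entered the fit across 11646 genes. Trib2 did not.

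**Figure D1:**
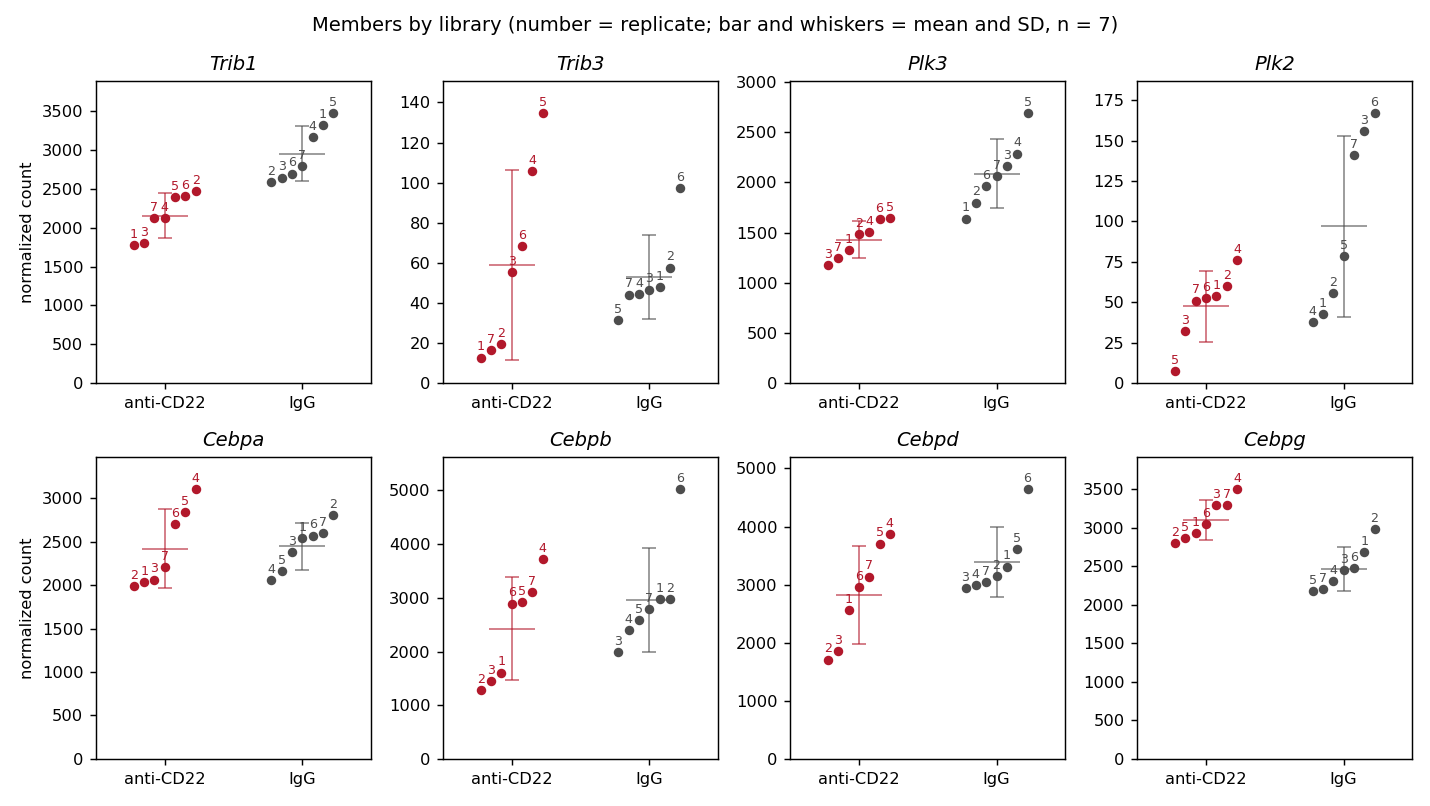
Normalized counts of 8 genes in each library (vertical axis from 0), anti-CD22 to the left of IgG, with points numbered by replicate and the bar and whiskers giving the mean and SD of 7 libraries. All anti-CD22 points of Trib1 lie under the lowest IgG point, whereas the low anti-CD22 points of Cebpb and Cebpd are replicates 1, 2 and 3.

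Trib1 (chromosome 15: 59648350 to 59657099, GRCm38, plus strand) was the most abundant Tribbles gene. It ranged from 1780 to 2465 normalized counts in anti-CD22 libraries, with a median of 2121, and from 2587 to 3468 in IgG libraries, with a median of 2787. The groups did not overlap: the highest anti-CD22 library, replicate 2, lay under the lowest IgG library, also numbered replicate 2. Among all 11646 genes, 14 (0.12%) had every anti-CD22 library under the lowest IgG library; since Trib1 was picked for its fall, nothing is read from that share. The means were 2155 ± 285 with anti-CD22 and 2952 ± 358 with IgG (SD, n = 7 each), a log2 difference of -0.46 (SE 0.092, 95% interval -0.65 to -0.26), or 1.37-fold lower. The difference was -0.48 after each library's trend over transcript length and GC content was removed and -0.38 without anti-CD22 replicates 1, 2 and 3.

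Trib3 (chromosome 2: 152337422 to 152344032, minus strand) had its widest spread among anti-CD22 libraries. It ranged there from 12.8 to 135 normalized counts, with a median of 55.5, and from 31.5 to 97.4 in IgG libraries, with a median of 46.7. Anti-CD22 replicates 1, 2 and 7 lay under the lowest IgG library and replicates 4 and 5 above the highest. The mean was higher with anti-CD22, at 59.0 ± 47.4 against 52.9 ± 21.1 with IgG (SD, n = 7 each), while the difference of log2 values was -0.24 (SE 0.48, 95% interval -1.24 to 0.76, limma adjusted p = 0.864). The sign of its difference therefore depends on the scale.

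Trib2 (chromosome 12: 15791727 to 15816922, minus strand) was barely detected. Anti-CD22 replicates 2, 4 and 5 had 11.5, 9.25 and 0.928 normalized counts and the other 4 had 0, while all 7 IgG libraries were at 0. A count of 0 allows up to 3 reads, which is 2.46 to 4.14 normalized counts in the IgG libraries and covers counting error only. Anti-CD22 replicates 2 and 4 lay above that floor and replicate 5 below it. Trib2 was too scarce to enter the fit, so a difference between the groups was not tested.

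Plk3 (chromosome 4: 117128655 to 117133963, minus strand) was the abundant one of the kinase pair. Its anti-CD22 libraries held from 1176 to 1641 normalized counts, with a median of 1482, and its IgG libraries from 1639 to 2686, with a median of 2058. The groups met at their edges, since anti-CD22 replicate 5, at 1641, lay just above IgG replicate 1, at 1639, and the other 6 anti-CD22 libraries lay under every IgG library. Means were 1430 ± 184 with anti-CD22 and 2084 ± 343 with IgG (SD, n = 7 each), a log2 difference of -0.54 (SE 0.10, 95% interval -0.76 to -0.32), or 1.45-fold lower. It was -0.44 after removal of the length and GC trend and -0.46 without anti-CD22 replicates 1, 2 and 3. As for Trib1, this fall chose the genes and was not tested.

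Plk2 (chromosome 13: 110395046 to 110400844, plus strand) also stood lower in anti-CD22 libraries but did not pass the test. It ranged from 7.42 to 76.0 normalized counts with anti-CD22, with a median of 52.8, and from 37.9 to 167 with IgG, with a median of 78.8. IgG replicates 3, 6 and 7 were high, at 156, 167 and 141, above every anti-CD22 library, and every anti-CD22 value was smaller than the IgG median. The log2 difference was -1.02 (SE 0.47, 95% interval -1.99 to -0.05, limma adjusted p = 0.375). Without anti-CD22 replicate 5, the lowest library, it was -0.64.

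Cebpa (chromosome 7: 35119293 to 35121928, plus strand), the factor whose protein Trib1 and Trib2 target, had nearly the same mean in both groups. It ranged from 1992 to 3106 normalized counts with anti-CD22, with a median of 2207, and from 2056 to 2810 with IgG, with a median of 2545. Anti-CD22 replicates 1, 2 and 3 were low, 2 of them under the lowest IgG library, and replicates 4 and 5 were above the highest. The means were 2421 ± 452 with anti-CD22 and 2446 ± 265 with IgG (SD, n = 7 each). The log2 difference was -0.028 (SE 0.10, 95% interval -0.25 to 0.19, limma adjusted p = 0.935), and it was 0.10 after removal of the length and GC trend. These are transcript levels, and the protein was not measured.

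Cebpb (chromosome 2: 167688915 to 167690418, plus strand) split the anti-CD22 libraries. Replicates 1, 2 and 3 held 1606, 1285 and 1455 normalized counts, all under the lowest IgG library at 1992. The other 4 anti-CD22 libraries held from 2894 to 3715, above the IgG median of 2785, and the highest value of all was 5025 in IgG replicate 6. Means were 2425 ± 957 with anti-CD22 and 2963 ± 973 with IgG (SD, n = 7 each), a log2 difference of -0.34 (SE 0.23, 95% interval -0.82 to 0.13, limma adjusted p = 0.531). Replicates 1, 2 and 3 are the libraries with the strongest length and GC trend. The difference was -0.14 with that trend removed, 0.14 without these 3 libraries and -0.21 without IgG replicate 6 or, likewise, without anti-CD22 replicate 2.

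Cebpd (chromosome 16: 15887286 to 15891031, plus strand) followed the same order of libraries. Anti-CD22 replicates 1, 2 and 3 held 2558, 1708 and 1853 normalized counts, again under the lowest IgG library at 2934. The other 4 ranged from 2951 to 3875, within the IgG range, whose highest value was 4645 in replicate 6. The means were 2827 ± 842 with anti-CD22 and 3383 ± 602 with IgG (SD, n = 7 each). The log2 difference was -0.30 (SE 0.16, 95% interval -0.64 to 0.03, limma adjusted p = 0.437). With the trend removed it was -0.32, and without anti-CD22 replicates 1, 2 and 3 it was 0.023. Without anti-CD22 replicate 2 alone it was -0.19.

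Cebpg (chromosome 7: 35046422 to 35056573, minus strand) stood higher in anti-CD22 libraries but did not pass the test. Its range was 2796 to 3502 normalized counts with anti-CD22, with a median of 3043, and 2178 to 2983 with IgG, with a median of 2453. Every anti-CD22 value exceeded the IgG median and 4 of the 7 exceeded every IgG library, while IgG replicate 2 reached into the anti-CD22 range. Means were 3102 ± 263 with anti-CD22 and 2469 ± 286 with IgG (SD, n = 7 each), 1.26-fold higher. The log2 difference was 0.33 (SE 0.077, 95% interval 0.17 to 0.49), at limma adjusted p = 0.163, so it missed the threshold of 0.05 over all genes. Over the other settings its adjusted p ran from 0.0503, by DESeq2 on the reads of 13 libraries, to 0.611, by limma without anti-CD22 replicates 1, 2 and 3. By edgeR it was 0.383. Cebpg has a long transcript of low GC content, at 4709 bases and 43.3%, and the difference was 0.22 with the trend removed. Without anti-CD22 replicates 1, 2 and 3 it was 0.37.

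Of the 6 genes of the set that could be given a test, 0 passed limma's adjusted p of 0.05 and 2 (Cebpg and Plk2) had an unadjusted p under 0.05. Over all 11646 genes 1 passed (0.00859%), with 1485 at an unadjusted p under 0.05, while on the reads of 13 libraries edgeR called 0 genes and DESeq2 called 32.

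**Figure D2:**
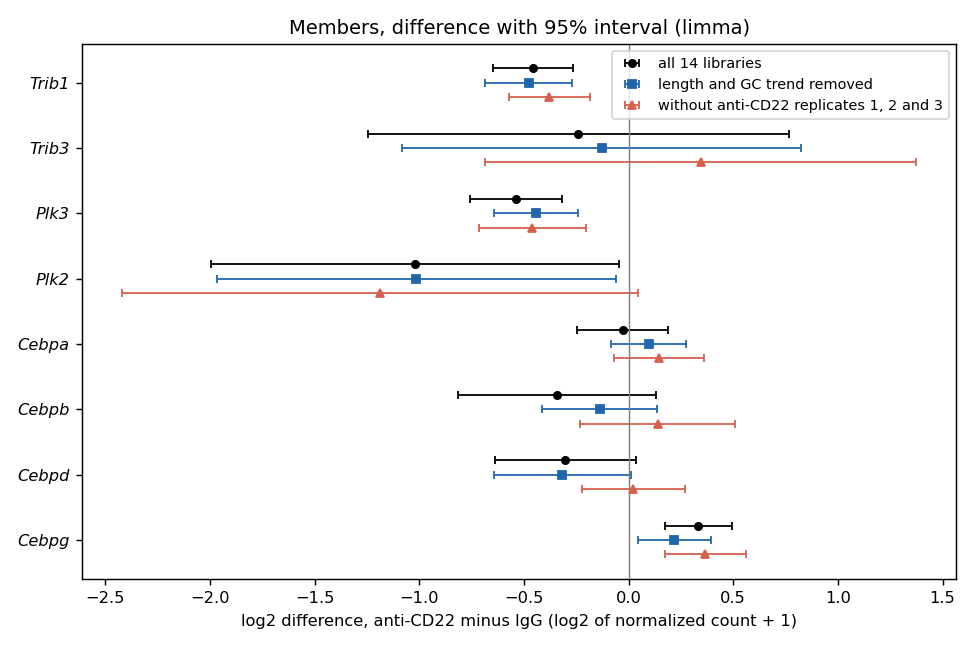
Log2 difference, anti-CD22 minus IgG, of 8 genes with its 95% interval by limma (horizontal axis), for all 14 libraries, after removal of the length and GC trend, and without anti-CD22 replicates 1, 2 and 3. Trib1, Plk3, Plk2 and Cebpg keep their sign in all 3 settings, whereas Cebpb stands at -0.34 with all libraries and at 0.14 without the 3. Trib1 and Plk3 were picked for their fall, so their sign is a description.

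The make-up of the C/EBP transcripts differed between libraries with the same split. Cebpb made up 39.5% ± 6.33 of the summed per-length levels of the 4 genes with anti-CD22 and 44.7% ± 5.17 with IgG (SD, n = 7 each). For Cebpg the share was 17.6% ± 4.29 with anti-CD22 and 12.4% ± 2.04 with IgG. It stood at 19.8%, 22.3% and 23.7% in anti-CD22 replicates 1, 2 and 3, above every other library, and from 13.2% to 15.7% in the other 4, against 8.65% to 14.7% in IgG libraries. A share also rises when the other C/EBP genes are lower. In normalized counts Cebpg held 2930, 2796 and 3290 in replicates 1, 2 and 3 and 2865 to 3502 in the other 4. Shares were not computed with the length and GC trend removed. Cebpa held 23.9% ± 3.14 with anti-CD22 and 21.9% ± 3.08 with IgG, and Cebpd 19.0% ± 1.94 and 21.0% ± 1.90 in the same order. These shares rest on the longest annotated transcript of each gene, and another choice would shift all of them.

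**Figure D3:**
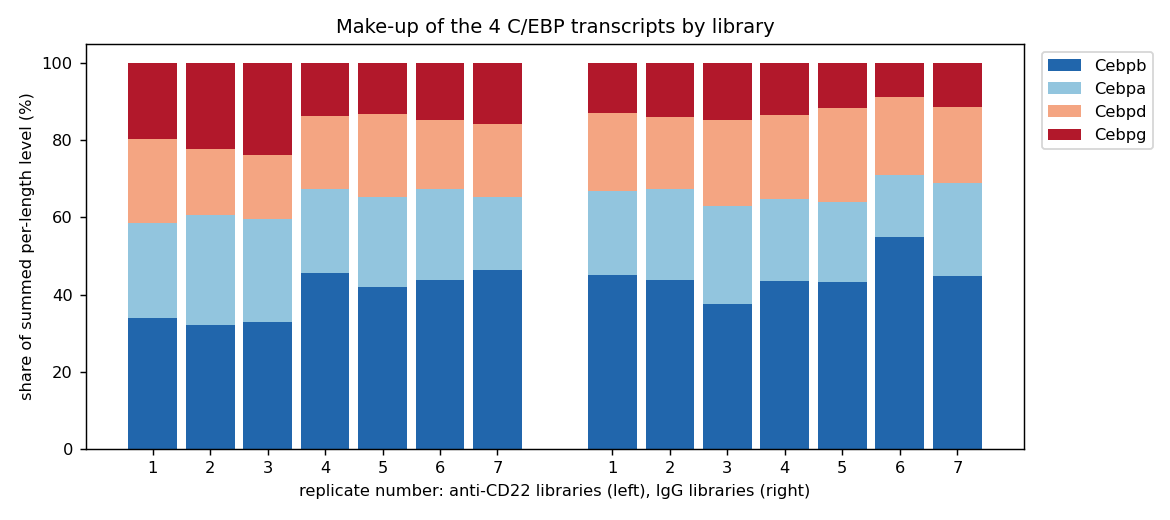
Share of each C/EBP gene in the summed normalized counts per kilobase of the 4 genes (vertical axis, percent) in each library, with anti-CD22 replicates 1 to 7 on the left and IgG replicates 1 to 7 on the right. The Cebpg share is 19.8% to 23.7% in anti-CD22 replicates 1, 2 and 3 and at most 15.7% elsewhere.

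How the genes vary among libraries of one group does not use the difference between groups that chose them, although the libraries are the same. Deviations of the log2 level from the group mean were therefore compared for the 28 pairs of the 8 genes. Cebpb and Cebpd had a Pearson r of 0.94 over the 7 anti-CD22 libraries and 0.88 over the 7 IgG libraries. The IgG value includes replicate 6, which lay far above the other IgG libraries in both genes. The r within IgG without that library was not computed. Over all 14 libraries r was 0.92 (two-sided permutation within groups, p = 7e-05, adjusted p = 0.00196 over the 28 pairs) and Spearman's rho 0.92 (permutation p = 6e-05, adjusted p = 0.00168). Without the 2 libraries farthest from the median of Cebpb r was 0.87, and without IgG replicate 6 alone it was 0.90 (permutation, adjusted p = 0.0162). The anti-CD22 libraries fall into replicates 1, 2 and 3 at the low end and the rest. Without these 3, r was 0.82 (permutation p = 0.0105), which missed the threshold over 28 pairs (adjusted p = 0.184).

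After removal of the length and GC trend, the r of Cebpb and Cebpd was 0.81 (permutation p = 0.00069, adjusted p = 0.0129). Both genes were also among the more variable ones at their level. The SD of log2 values within groups was 0.53 for Cebpb and 0.37 for Cebpd, larger than for 99.7% and 98.5% of the 3372 genes that averaged 1000 to 5000 normalized counts, whose median was 0.16. For Cebpg it was 0.14 and for Trib1 0.18. Anti-CD22 replicates 1, 2 and 3, low in Cebpb, had the most negative rho with GC content, as given above. IgG replicate 6, highest in Cebpb and Cebpd, had the highest such rho of all libraries, at 0.28. Beyond the r without the trend, its part in the co-variation was not tested.

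**Figure D4:**
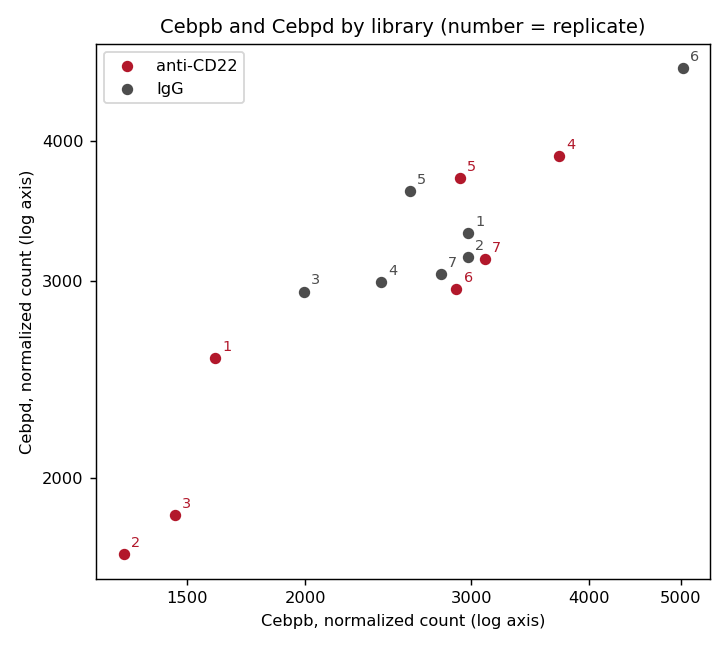
Normalized counts of Cebpb (horizontal, log axis) and Cebpd (vertical, log axis) in each library, anti-CD22 and IgG, numbered by replicate. Points run from anti-CD22 replicate 2 at the low end to IgG replicate 6 at the high end, and IgG replicate 6 lies apart from the other IgG libraries.

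None of the other 27 pairs passed the adjusted threshold by this permutation test; over all 28 pairs, 6 had an unadjusted p under 0.05. Trib3 and Cebpa had an r of 0.77 (permutation p = 0.0130, adjusted p = 0.121) and Cebpa and Cebpb one of 0.74 (permutation p = 0.0114, adjusted p = 0.121). After removal of the length and GC trend these were 0.43 (permutation p = 0.0753) and 0.23 (permutation p = 0.438), and the r of Cebpa and Cebpd was -0.11, against 0.68 before. Cebpb and Cebpg, with an r of 0.34 (permutation p = 0.217, adjusted p = 0.553), then had one of 0.82 and passed (permutation p = 0.00092, adjusted p = 0.0129). Trib1 and Plk3, the 2 genes that chose the set, had an r of 0.55 (permutation p = 0.0462, adjusted p = 0.216) and a rho of 0.53 (permutation p = 0.0659, adjusted p = 0.308). Their r was 0.80 within anti-CD22 libraries and 0.35 within IgG libraries, a difference that was not tested. Without IgG replicate 1 this pair passed (permutation, adjusted p = 0.0162). Both genes were picked for their fall in these same libraries, which can favor a pair that varies together. Nothing is therefore read from the p of this pair. Plk2 and Plk3 had an r of -0.036 (permutation p = 0.903), and Trib1 and Cebpa one of 0.046 (permutation p = 0.883).

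**Figure D5:**
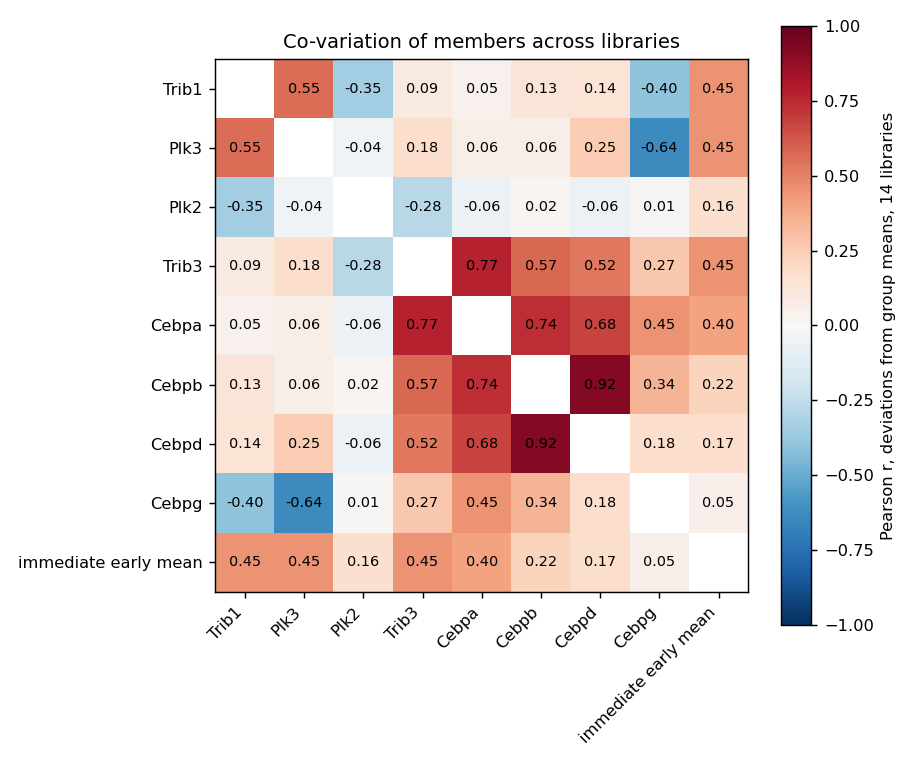
Pearson r between deviations from group means over 14 libraries (color scale and printed values) for 8 genes and the mean of 21 immediate early genes. Cebpb and Cebpd stand at 0.92 and the pairs among Cebpa, Cebpb, Cebpd and Trib3 have an r of 0.52 or more, which after removal of the length and GC trend holds only for Cebpb and Cebpd, while Plk2 has no r above 0.16 with any other entry.

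Each gene was also set against the mean of 21 immediate early genes, such as Fos, Jun and Egr1, which are switched on within minutes by stimulation or by handling of cells. By permutation 0 of 8 passed and 0 had an unadjusted p under 0.05. Plk3 had an r of 0.45 (permutation p = 0.0976, adjusted p = 0.451) and Trib1 an r of 0.45 (permutation p = 0.137, adjusted p = 0.451). Within anti-CD22 libraries these were 0.81 for Plk3 and 0.84 for Trib1, and within IgG libraries 0.023 for Plk3 and -0.31 for Trib1; the difference between the groups was not tested.

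The genes most like each member over the 14 libraries were looked up among 9428 genes with a mean of at least 100 normalized counts. Predicted genes, whose names are Gm and a number or end in Rik, were passed over. For Plk3 these were the immediate early gene Ier3 (r = 0.91), the glycosyltransferase gene B3gnt7 (0.89) and Smap2 (0.89). For Trib1 they were the ubiquitin-conjugating enzyme gene Ube2g2 (0.86), Hps4 (0.85) and Ajuba (0.83). Cebpb was most like the insulin receptor substrate gene Irs2 (0.95), Mocs3 (0.94) and Pura (0.94), and Cebpd like the nuclear receptor gene Nr2f6 (0.96), Snx20 (0.94) and the transcription factor gene Sox4 (0.94). Cebpd ranked 10 among the genes most like Cebpb when predicted genes were counted too. Cebpa was most like Tmem141 (0.90), Pcx (0.90) and Zfp36l2 (0.89), Cebpg like the heat shock gene Dnajb1 (0.86), Pdf (0.84) and Alkbh1 (0.82). Of the scarce genes, Trib3 was most like Tomm22 (0.84), Rapsn (0.83) and Mrps28 (0.82), and Plk2 like Ftx (0.86), Rab9 (0.82) and Papd7 (0.78). These are among the highest of many values and describe these libraries, so no p is given.

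Partners of the members were measured in the same fit, and 0 of 12 tested passed. Rfwd2, the gene of the ligase COP1 that Trib1 and Trib2 recruit, averaged 1190 ± 183 normalized counts with anti-CD22 and 1153 ± 176 with IgG (SD, n = 7 each; log2 difference 0.046, limma adjusted p = 0.893). The kinase genes Map2k1 (-0.043), Map2k4 (0.10), Map2k7 (0.22) and Akt1 (-0.072), whose products bind Tribbles proteins, had log2 differences with adjusted p from 0.582 for Akt1 to 0.790 for Map2k1. Stk40, a relative of the Tribbles genes, stood at -0.010.

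Among factors that pair with C/EBP proteins, Atf4 averaged 1598 ± 274 normalized counts with anti-CD22 and 1685 ± 185 with IgG (log2 difference -0.088). Ddit3, which encodes CHOP, averaged 299.6 ± 42.2 with anti-CD22 and 289.6 ± 43.4 with IgG (log2 difference 0.047). Atf3, an inducible stress factor, averaged 824 ± 105 with anti-CD22 and 1011 ± 149 with IgG, a log2 difference of -0.29 (SE 0.11, limma adjusted p = 0.296), the smallest adjusted p of the partners. Cebpz, Plk1 and Plk4 had log2 differences of 0.093, -0.023 and 0.036. Cebpe, the C/EBP of granulocyte precursors, Atf5 and Plk5 were too scarce to be tested, with at most 10.3, 9.28 and 13.3 normalized counts in any anti-CD22 library and 39.9, 11.2 and 16.8 in any IgG library.

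Targets of the same factors were taken from lists of well-known genes. Of 20 tested targets of ATF4 in the integrated stress response, 0 passed, 7 were higher and 13 lower, with a median log2 difference of -0.12. Over all tested genes 49.8% were lower and the median was 0.0011. The 3 most abundant of these targets were the amino acid transporter gene Slc3a2 (-0.086), the endoplasmic reticulum gene Herpud1 (-0.20, adjusted p = 0.244) and the serine synthesis gene Phgdh (-0.18). Of 11 tested myeloid targets of C/EBP factors 0 passed, 2 were higher and 9 lower, with a median of -0.23. The 9 include 4 neutrophil granule genes, Camp (-0.77), Ltf (-0.60), Fcnb (-1.24) and Lcn2 (-0.27), which were highest in IgG replicate 1, the library with the highest neutrophil markers. Without these 4 genes, a choice made after seeing the data, 2 were higher and 5 lower, with a median of -0.074. Without IgG replicate 1, 5 of the 11 were higher and 6 lower, with a median of -0.011. Csf1r, the receptor gene that microglia need to survive, averaged 436950 ± 21906 normalized counts with anti-CD22 and 425322 ± 38276 with IgG (0.043), the integrin gene Itgam had 0.19 and the endotoxin co-receptor gene Cd14 had -0.26 (limma adjusted p = 0.195).

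Inflammatory targets of C/EBP beta and delta numbered 15 tested, of which 0 passed, 3 were higher and 12 lower, with a median log2 difference of -0.21. The protease gene Lgmn, the most abundant, had -0.035, the adhesion gene Icam1 -0.12 and the cytokine gene Il1a -0.083. For p53 targets, a group known to include Plk2 and Plk3, 0 of 13 tested passed, with 7 higher, 6 lower and a median of 0.011. Their most abundant members were Sesn1 (0.025), Btg2 (0.083) and Ccng1 (0.011). Among the 21 immediate early genes tested, 4 were higher and 17 lower, with a median of -0.41, and 1 passed. That gene, Ier2, averaged 326 ± 45.5 normalized counts with anti-CD22 and 598 ± 103 with IgG (log2 difference -0.87, limma adjusted p = 0.0227). It is the 1 gene called over all genes. The limma call was lost after removal of the length and GC trend (-0.72, adjusted p = 0.208) and without anti-CD22 replicates 1, 2 and 3 (-0.85, adjusted p = 0.510). It was also lost without limma's mean-variance trend (adjusted p = 0.0638) and in 8 of 14 limma fits that left out 1 library (adjusted p from 0.0139 to 0.101 over the 14). By edgeR, run without anti-CD22 replicate 3, adjusted p was 0.0846, and limma without that library gave 0.0835. By DESeq2 on the same 13 libraries the adjusted p of Ier2 was 1.91e-05. The most abundant immediate early genes, Klf6, Btg1 and Rhob, had log2 differences of 0.054, 0.092 and -0.17. The direct target of the antibody, Cd22, had a log2 difference of 0.026 (95% interval -0.22 to 0.27).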

How the data were processed

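Per the labels' protocols, cDNA was amplified with a SMART-Seq kit and sequenced from both ends as 100-base reads. The submitters' processing notes name bcl2fastq, STAR, DESeq2 and the build mm10, and the series' design text adds SummarizedExperiment for counting. Not given in the sources used here are their versions, the annotation and any filters. The table the authors deposited holds a normalized signal: its values are whole reads divided by 1 factor per library. Of its 24421 entries, 27 with names turned into dates (at most 0.149% of a library) were left out. All 14 columns matched a sample title, which also gave the groups. The members and lists were chosen with earlier results of these data known.

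Groups were compared with limma, using log2(normalized count + 1) and a mean-variance trend, for 11646 genes with a mean of at least 10. It was two-sided and adjusted by Benjamini-Hochberg over all these genes, with a threshold of 0.05. Whole reads (multiples of 1 step within 0.1 reads) were recovered for 13 libraries and used for edgeR and DESeq2. Anti-CD22 replicate 3 was left out there because its step is too close to 1. Correlations used 100000 permutations within groups. Their adjusted p covers the 28 pairs or the 8 immediate early comparisons. Coordinates, the longest transcript and GC content came from GENCODE vM21 (GRCm38, the assembly of mm10), with a length for 96.4% of tested genes. The trend was removed per library with natural splines. Named genes were the 9 members, Cd22, all partners, the 3 most abundant genes of each further list, genes past the threshold and the 3 genes most like each member. Predicted genes were passed over for the last of these. The labels do not say whether replicate numbers pair the samples. The r of deviations between same-numbered libraries was from -0.15 to 0.16. That r cannot exclude a pairing, since each library's own length and GC trend also enters it. On simulated counts of 11646 genes in this design limma found 51 of 100 genes altered 1.5-fold and 93 of 100 altered 2-fold, with 1 false call. The simulation gave every gene the same dispersion and held no length or GC trend. Its shares therefore do not apply to Plk2, Trib3, Cebpb and Cebpd, whose SD of log2 values within groups was 0.99, 1.00, 0.53 and 0.37. The shares also depend on how many genes were altered, so they are not read as the power for the other members. The reads carry no molecular identifiers, so floors cover counting error only. Tools were R 4.3.3, limma 3.58.1, edgeR 4.0.16, DESeq2 1.42.0, Python 3.11.15 and pandas 2.3.3.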

Additional observations from a re-analysis of the deposited data

Results flagged for a closer look

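One library stood apart from its group in 3 genes. IgG replicate 6 had 97.4 normalized counts of Trib3, where the next IgG library had 57.7, so that the gap made up 0.603 of the group's range. It also had 5025 normalized counts of Cebpb against 2976 in the next (gap 0.676 of the range) and 4645 of Cebpd against 3609 in the next (gap 0.606 of the range). In all 17 groups of libraries were examined in this way, and chance marks about 1 in 20. Without this library, a choice made after seeing the data, the log2 differences between anti-CD22 and IgG were -0.083 for Trib3, -0.21 for Cebpb and -0.22 for Cebpd, against -0.24, -0.34 and -0.30 with it. Its neutrophil markers summed to 535 normalized counts, the median of the IgG libraries.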

How the results depend on the processing

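Trib1, Plk3, Plk2 and Cebpg kept their direction in every setting in which they could be fitted, Trib1 from -0.49 to -0.41, Plk3 from -0.59 to -0.47, Plk2 from -1.20 to -0.64 and Cebpg from 0.30 to 0.38 when single libraries were left out. Since Trib1 and Plk3 were picked for their fall in these same libraries, nothing is read from their stable sign. No direction was stable for Trib3 and Cebpa. Without anti-CD22 replicates 1, 2 and 3 the log2 differences were 0.34 for Trib3, 0.15 for Cebpa, 0.14 for Cebpb and 0.023 for Cebpd; with the length and GC trend removed Cebpa had 0.10. On reads of 13 libraries edgeR gave 0.18 for Trib3 and 0.024 for Cebpa, and DESeq2 gave 0.17 for Trib3 and 0.021 for Cebpa. Leaving out single libraries gave -0.52 to 0.034 for Trib3, which turned without anti-CD22 replicate 1, and -0.091 to 0.016 for Cebpa, which turned without anti-CD22 replicate 1 (0.010), 2 (0.016) or 3 (0.0071) or IgG replicate 2 (0.0069). The cause was not tested.

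Over all genes limma called 1, Ier2. The count was 0 without a mean-variance trend (1340 at an unadjusted p under 0.05), 0 with the length and GC trend removed (1002), 0 without anti-CD22 replicates 1, 2 and 3 (581) and 0 by edgeR (1027). It was 8 with library weights, 4 at a threshold of 0.10 and 32 by DESeq2, which gave no adjusted p for 3839 genes. With the replicate block it was 2; the numbers pair nothing in the labels, and the block changed no call of a member. Leaving out single libraries gave 0 to 43 calls: 43 without anti-CD22 replicate 7, 2 when anti-CD22 replicate 2 or 5 was absent, and 0 without anti-CD22 replicate 1, 3 or 6 or IgG replicate 2, 3, 4, 5 or 7 (1073 to 1655 at an unadjusted p under 0.05). Of the 28 pairs 1 passed, 2 with the trend removed (also Cebpb and Cebpg), 0 without anti-CD22 replicates 1, 2 and 3, and 1 to 2 when single libraries were left out, with 2 without IgG replicate 1. The r of Cebpb and Cebpd was 0.82 (adjusted p = 0.184) without anti-CD22 replicates 1, 2 and 3 and 0.89 to 0.94 when single libraries were left out.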

Other observations

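The pair with the most negative r among libraries was Cebpg and Plk3, and it did not pass the adjusted threshold. Its r over the deviations of 14 libraries was -0.64 (two-sided permutation within groups, p = 0.0244, adjusted p = 0.156 over 28 pairs) and Spearman's rho -0.62 (permutation p = 0.0286, adjusted p = 0.160). It was -0.40 within anti-CD22 libraries, -0.78 within IgG libraries, -0.58 after removal of the length and GC trend and -0.78 without the 2 libraries farthest from the median of Cebpg.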
